A study of Mus musculus with 12 samples.

Results

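Alx1, Alx4, Prrx1, Prrx2, Twist1, Six2 and Pdgfra are genes used as markers of the frontonasal and facial mesenchyme of the embryo. They were taken by symbol from the deposited count table, which holds 24421 genes, and all 7 were present and passed the filter on low counts that left 14810 genes for testing. The samples were 12 RNA sequencing libraries from C57Bl/6 mouse embryos of a model of mandibulofacial dysostosis with microcephaly, in which Eftud2, a spliceosome GTPase gene, was altered in the neural crest. There were 3 libraries of Eftud2+/- embryos, the controls, and 3 of Eftud2-/- embryos at embryonic day 9.0 (E9.0), and 3 of each at E9.5. The controls thus also carried 1 altered allele, and there was no group without one. The labels name no Cre driver and no treatment, and they do not say how many embryos went into a library or whether the libraries of a group came from separate embryos, so the p-values measure only the spread between these libraries. They give the material in different places as neural crest cells, as cranial nerve ganglia and as heads.

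Facial mesenchyme arises largely from cranial neural crest cells, which leave the dorsal neural tube, migrate under the surface ectoderm and fill the frontonasal process and the pharyngeal arches. Alx and Prrx proteins are paired-type homeodomain transcription factors of this mesenchyme, and loss of ALX1 or ALX4 in humans causes frontonasal dysplasia. Twist1 is a basic helix-loop-helix factor of the mesenchymal state, Six2 is a homeodomain factor that works with Eya proteins, and Pdgfra is a receptor tyrosine kinase on mesenchymal cells.

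In the GENCODE M21 annotation of GRCm38, the same assembly as the mm10 named in the submitters' processing notes, Alx1 lies on the minus strand at chr10:102998707-103030215, Alx4 on the plus strand at chr2:93642384-93681339 and Prrx1 on the minus strand at chr1:163245119-163313710. Prrx2 lies on the plus strand at chr2:30834972-30881251, Twist1 on the plus strand at chr12:33957671-33959829, Six2 on the minus strand at chr17:85684277-85688274 and Pdgfra on the plus strand at chr5:75152292-75198215. Exons of Alx1 share 243 bases with Gm17028, a lincRNA gene on the same strand. Exons of Pdgfra share 456 bases with Gm42802 and 166 bases with Gm42803, both on the opposite strand, and 30 bases with Mir7025. Those shared bases are part of 5756 exonic bases in Alx1 and 10024 in Pdgfra. Reads within them may belong to either gene, and the strand setting of the counting, which bears on the opposite-strand pairs, is not given in the sources used here. The exons of the other 5 genes overlapped no other annotated exon.

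RefSeq (GRCm38.p6) promoter windows of 300 bases, from 250 before to 50 after the start, were matched for 5 of the 7 genes, Prrx1, Prrx2, Twist1, Six2 and Pdgfra. The searched letters were TAATTA, and TAAT followed after any 3 bases by ATTA, which are letters of paired-type homeodomain sites, and CANNTG, the E-box letters of helix-loop-helix factors such as Twist1. Each reads the same on both strands. The 3 windows that hold a match are shown with the match in capitals, since they show which letters the set's own promoters carry.
Prrx1, minus strand, chr1:163313601-163313900: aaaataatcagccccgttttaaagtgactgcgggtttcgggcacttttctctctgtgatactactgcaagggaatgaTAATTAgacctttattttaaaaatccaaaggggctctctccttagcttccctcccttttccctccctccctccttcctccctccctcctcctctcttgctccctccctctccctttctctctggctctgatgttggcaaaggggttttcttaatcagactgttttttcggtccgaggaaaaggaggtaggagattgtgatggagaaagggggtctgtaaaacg
Six2, minus strand, chr17:85688205-85688504: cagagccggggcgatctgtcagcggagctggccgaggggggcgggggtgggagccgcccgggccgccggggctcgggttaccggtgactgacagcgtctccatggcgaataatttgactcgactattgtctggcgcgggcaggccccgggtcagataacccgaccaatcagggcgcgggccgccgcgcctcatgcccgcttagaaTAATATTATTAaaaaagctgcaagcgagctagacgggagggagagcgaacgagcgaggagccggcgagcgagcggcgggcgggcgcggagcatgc
Pdgfra, plus strand, chr5:75152001-75152300: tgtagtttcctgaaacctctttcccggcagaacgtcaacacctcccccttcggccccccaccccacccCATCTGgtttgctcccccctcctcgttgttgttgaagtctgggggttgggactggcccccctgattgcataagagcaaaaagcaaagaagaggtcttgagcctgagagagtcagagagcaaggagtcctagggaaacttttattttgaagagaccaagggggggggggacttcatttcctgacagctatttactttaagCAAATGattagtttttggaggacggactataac
The Prrx1 window holds TAATTA beginning 173 bases before the start, letters found in 5.29% of 32851 RefSeq promoter windows of the same length. The Six2 window holds TAATATTATTA, a form of the spaced pair, beginning 45 bases before the start, and 0.487% of the windows hold such a pair. The Pdgfra window holds CANNTG as CATCTG, beginning 182 bases before the start, and as CAAATG past the start, and 72.3% of the windows hold an E-box. The windows of Prrx2 and Twist1 hold none of these letters. A match of letters is a description of the window and no evidence of binding.

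Library totals ran from 13914543 to 31172708 counts. The ribosomal RNA row Rn45s made up 37.4% of heterozygous E9.0 replicate 1 and 6.05% to 16.2% of the other E9.0 libraries. In E9.5 libraries it made up 4.4% to 5.9%. The TMM scaling factor was 0.664 in heterozygous E9.0 replicate 1, 0.924 to 1.05 in the other E9.0 libraries and 1.09 to 1.11 at E9.5. Stage and Rn45s share thus cannot be told apart in the stage comparisons. Levels are given as CPM, a gene's counts after every library was brought to the same size with its TMM factor. The targeted gene, Eftud2, averaged 286 ± 14.6 CPM in heterozygous and 234 ± 1.95 CPM in homozygous E9.0 libraries (SD, n = 3 each, edgeR adjusted p 0.0193), and 256 ± 8.44 and 224 ± 2.96 CPM at E9.5 (edgeR adjusted p 0.0906). Its call at E9.0 was lost with a separate block for each stage and replicate number (edgeR adjusted p 0.0545), with only the groups compared (0.141), and without heterozygous replicate 1 or homozygous replicate 1 or 3 (up to 0.0713). Scaled by total counts only, which moved the median of all tested genes to 0.19, the E9.0 log2 difference went from −0.29 to −0.08 (edgeR adjusted p 0.751). At E9.5 Eftud2 passed with DESeq2 (adjusted p 0.0129). It also passed there with GC and length correction, without and with the replicate block (edgeR adjusted p 0.014 and 0.0275). Averaged over both stages its log2 difference was −0.24 (edgeR adjusted p 0.00214, and 0.619 with total counts only). Markers of several other cell types were detected in all 12 libraries, whatever the tissue named in the labels: 6 neural tube progenitor genes summed to 637 to 805 CPM, 7 surface ectoderm genes to 327 to 483 CPM, and 9 ganglion neuron genes to 79.1 to 195 CPM. None of the genes of these 3 lists was at 0 in any library.

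All 7 genes were expressed in every library. Per kilobase of annotated exon (CPM per kb), Twist1 was the highest of the set in each of the 4 groups, at 56.5 ± 1.34 in heterozygous E9.0, 49.5 ± 1.93 in homozygous E9.0, 54.0 ± 11.6 in heterozygous E9.5 and 44.1 ± 8.21 in homozygous E9.5 libraries (SD, n = 3 each). Prrx2 was second in each group, at 17.4 to 20.9 CPM per kb, with Pdgfra next, at 8.8 to 10.1 CPM per kb. Alx1 was the lowest in each group, at 1.99 and 1.06 CPM per kb in heterozygous and homozygous E9.0 libraries and 1.96 and 0.934 CPM per kb at E9.5. Six2, Prrx1 and Alx4 lay between them, at 3.29 to 7.39 CPM per kb. In heterozygous E9.0 libraries the ranges of Six2, Prrx1 and Alx4 overlapped with their neighbours in the order, as they did in homozygous E9.5 libraries. In heterozygous E9.5 libraries neighbours overlapped from Pdgfra down to Six2, and in homozygous E9.0 libraries only those of Alx4 and Prrx1 did. With the length of the longest transcript in place of all exons, Prrx1 stood at 6.70 instead of 3.95 and Alx1 at 4.26 instead of 1.99 CPM per kb in heterozygous E9.0 libraries, so the lower ranks depend on the length used.

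The main comparison asks how the loss of the second Eftud2 allele relates to these genes at each stage. Of the 7 genes, Alx1 was the one past the threshold, with a level in homozygous libraries 1.98-fold below that in heterozygous ones when both stages were averaged. At E9.0, 0 of the 7 passed edgeR's quasi-likelihood test at an adjusted p of 0.05, where 0.587% of all tested genes did. At that stage Alx1 was the only one with an unadjusted p under 0.05 (13.3% of all tested genes had one), and DESeq2 called 1 of the 7, Alx1, while limma-voom called 0. At E9.5, 1 of the 7 passed, Alx1 in the lower direction, where 1.89% of tested genes passed in either direction and 0.702% in the lower one. For the average of both stages 1 of the 7 passed, again Alx1, against 2.96% of tested genes in either direction and 1.14% in the lower one. The log2 difference was below 0 in 5 of the 7 genes at both stages, as it was in 51% and 50.8% of all tested genes, and its median over the 7 genes came to −0.20 and −0.26, beside −0.00 over all tested genes at either stage.

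**Figure D1:**
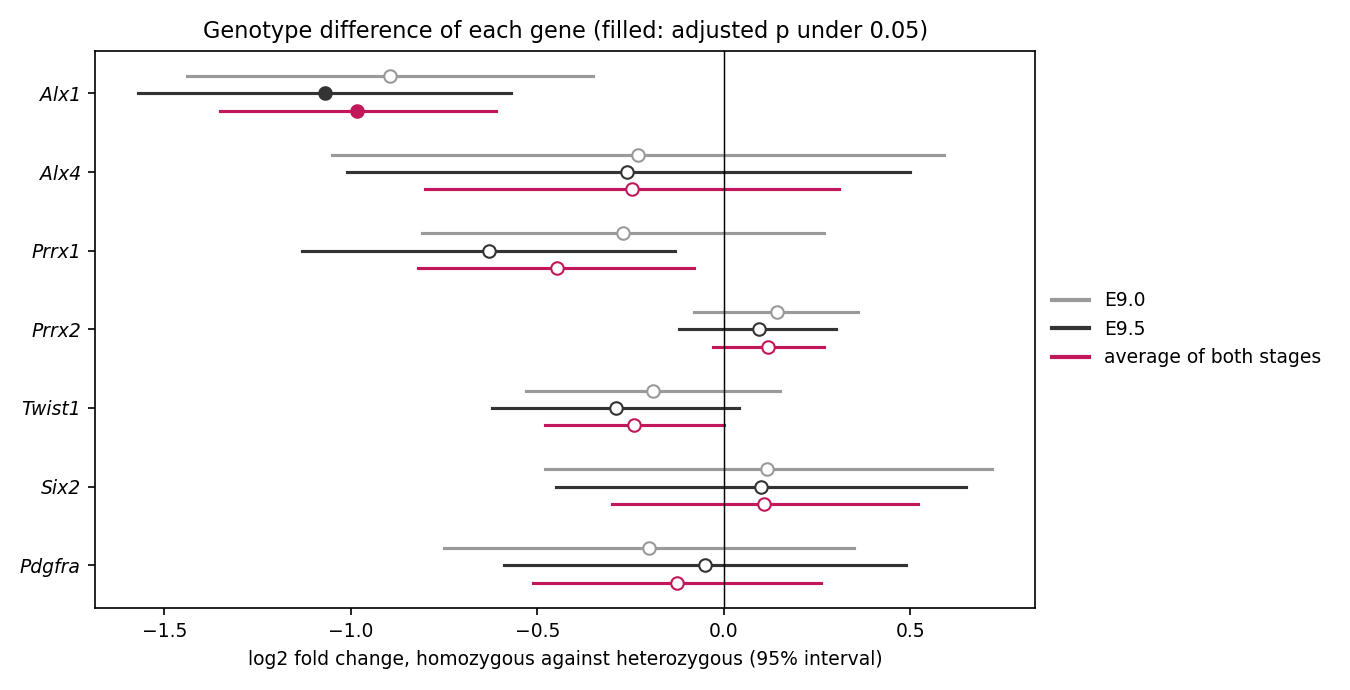
Log2 fold change of homozygous against heterozygous libraries on the x axis for each of the 7 genes, at E9.0 (grey), at E9.5 (black) and averaged over both stages (pink). Points are edgeR estimates from 3 libraries a group, lines are 95% intervals and filled points have an adjusted p under 0.05: only Alx1, at −1.07 for E9.5 and −0.98 for the average, is filled.

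Alx1 encodes a homeodomain factor required for frontonasal mesenchyme and the eye region. Its counts ran from 73 to 493 per library. In heterozygous E9.0 libraries it stood at 10.4, 12.7 and 11.2 CPM, and in homozygous E9.0 libraries at 5.49, 7.85 and 4.999 CPM. The homozygous libraries all lay under the heterozygous ones, as in 8.2% of all tested genes at this stage. Mean levels of 11.5 ± 1.16 and 6.11 ± 1.52 CPM (SD, n = 3 each) gave a log2 difference of −0.90 ± 0.252 (SE; 95% interval −1.44 to −0.35; edgeR adjusted p 0.157). The interval excluded 0, but the difference did not pass the threshold after adjustment over all tested genes. Replicate numbers were taken as pairing the libraries at E9.0 on weak correlations that do not establish a pairing. With a separate block for each stage and number the edgeR adjusted p of Alx1 was 0.0364 (log2 −0.92). With 1 block for each number over both stages it was 0.231.

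At E9.5 Alx1 stood at 15.0, 6.93 and 11.9 CPM in heterozygous libraries and at 5.63, 5.07 and 5.44 CPM in homozygous ones. The groups again did not overlap, as in 9.47% of tested genes in the lower direction, and the homozygous libraries lay within a much narrower range than the heterozygous ones. Mean levels of 11.3 ± 4.09 and 5.38 ± 0.287 CPM (SD, n = 3 each) gave a log2 difference of −1.07 ± 0.231 (SE; 95% interval −1.57 to −0.57; edgeR adjusted p 0.0333). The call held in 7 of 14 other fits, with differences of −1.08 to −0.99, and in 1 of 6 fits without a library, with differences of −1.33 to −0.80. It was kept without heterozygous E9.5 replicate 2 (edgeR adjusted p 0.00026) and lost without any one of the other 5 E9.5 libraries (up to 0.143).

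Averaged over both stages, Alx1 differed by −0.98 ± 0.171 (SE; 95% interval −1.35 to −0.61; edgeR adjusted p 0.00735). This call was kept whichever of the 12 libraries was omitted, at −1.11 to −0.85 (edgeR adjusted p 2.64e-05 to 0.0354), and in 12 of 13 other fits, the exception being the test against a 1.5-fold change. The Alx1 difference at E9.5 minus that at E9.0 was −0.17 ± 0.343 (SE; 95% interval −0.91 to 0.57; edgeR adjusted p 0.929), so no change of the effect between stages was detected and the interval is wide. In RNA from mixed tissue, fewer Alx1-expressing cells and less Alx1 RNA per cell cannot be told apart.

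**Figure D2:**
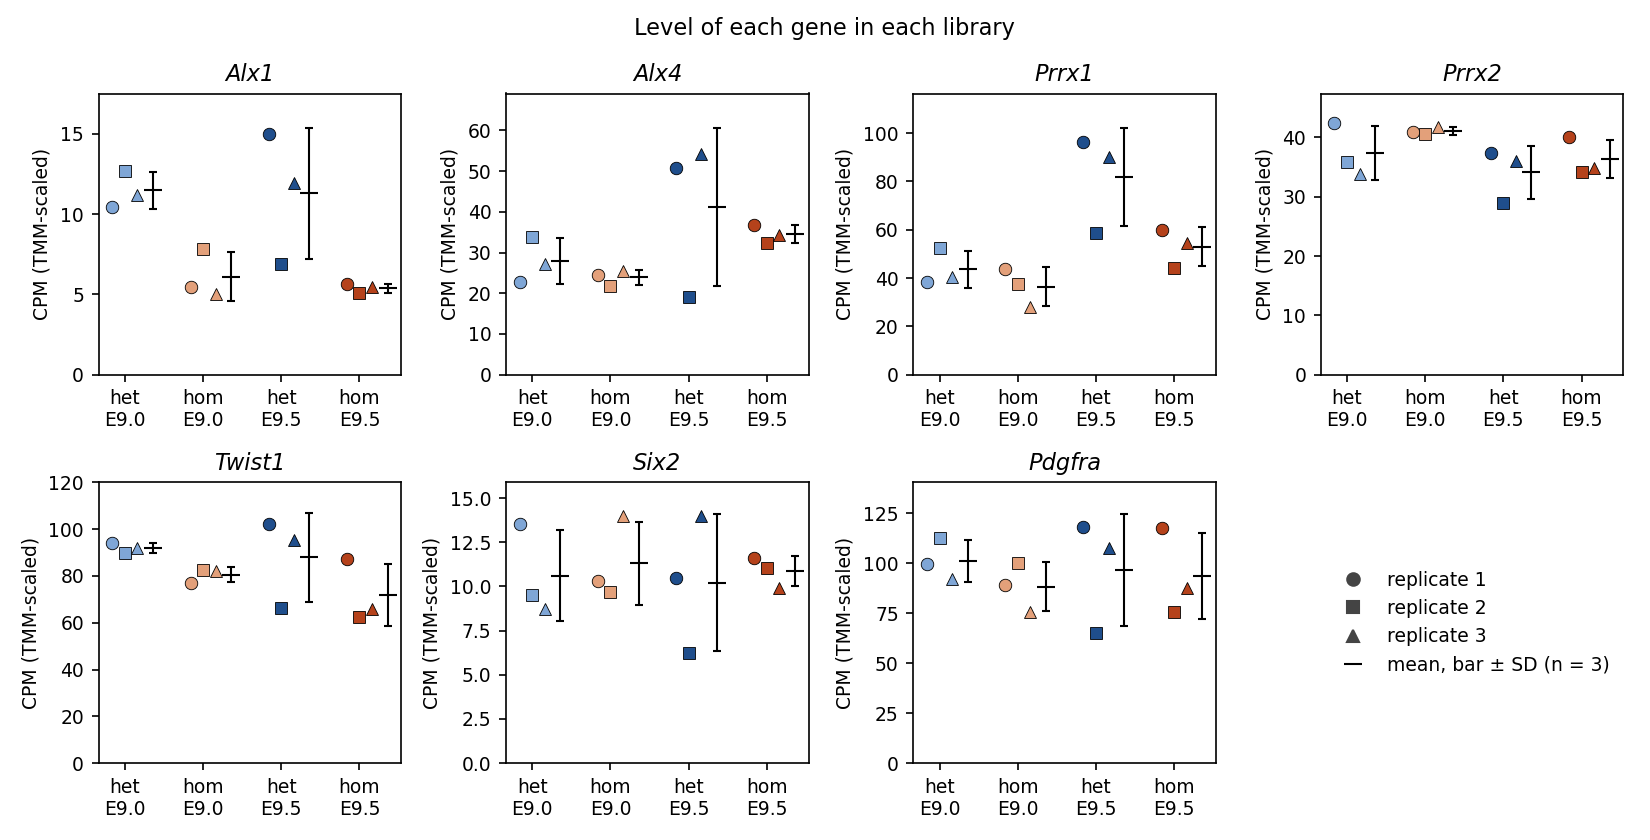
CPM of each of the 7 genes on the y axis in heterozygous (het, blue) and homozygous (hom, orange) libraries at E9.0 and E9.5 along the x axis, each point 1 library and each bar the mean ± SD of 3. In the Alx1 panel the homozygous libraries lie at 4.999 to 7.85 CPM at E9.0 and 5.07 to 5.63 CPM at E9.5, under all heterozygous libraries of the same stage, and in every panel the lowest heterozygous E9.5 point is replicate 2.

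Alx4 encodes the related factor that acts with Alx1 in the frontonasal skeleton and with other genes in limb patterning. It stood at 22.7, 33.7 and 27.2 CPM in heterozygous and at 24.4, 21.9 and 25.5 CPM in homozygous E9.0 libraries, overlapping ranges with a log2 fold change of −0.23 ± 0.362 (SE; 95% interval −1.05 to 0.59; edgeR adjusted p 0.834). At E9.5 it stood at 50.7, 19.1 and 54.2 CPM in heterozygous libraries and in homozygous ones at 36.8, 32.4 and 34.2 CPM. Replicate 2 of the heterozygous libraries lay below all 3 homozygous libraries and its 2 partners above all of them. The log2 fold change over all libraries was −0.26 ± 0.331 (SE; 95% interval −1.01 to 0.50; edgeR adjusted p 0.84). Without heterozygous E9.5 replicate 2 it was −0.60 at E9.5 (edgeR adjusted p 0.0211) and −0.42 for the average of both stages (edgeR adjusted p 0.0142, against 0.677 with it), so 1 library decided whether Alx4 passed. The 2 Alx genes were not tested against each other.

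Prrx1 and Prrx2 encode paired-related homeodomain factors with overlapping roles in craniofacial and limb mesenchyme. Prrx1 stood at 38.2, 52.5 and 40.5 CPM in heterozygous and at 43.8, 37.6 and 27.8 CPM in homozygous E9.0 libraries, which overlapped (log2 fold change −0.27 ± 0.241, SE; edgeR adjusted p 0.674). At E9.5 it stood at 96.5, 58.6 and 90.2 CPM in heterozygous and at 59.9, 44.2 and 54.6 CPM in homozygous libraries. Only heterozygous replicate 2 fell within the homozygous range. The difference was −0.63 ± 0.222 (SE; 95% interval −1.13 to −0.13), with an unadjusted p of 0.019 and an edgeR adjusted p of 0.251. With a separate block for each stage and number it was −0.61 (edgeR adjusted p 0.0197), though at E9.5 the numbers did not pair the libraries. The average of both stages was −0.45 ± 0.164 (SE; edgeR adjusted p 0.2), and it passed with that block (−0.45, edgeR adjusted p 0.0182).

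Prrx2, the paralog, stood at 42.4, 35.9 and 33.8 CPM in heterozygous and at 40.9, 40.5 and 41.7 CPM in homozygous E9.0 libraries, and at 37.3, 28.9 and 36.05 CPM against 40.1, 34.2 and 34.9 CPM at E9.5. The groups overlapped at both stages, and the homozygous means were slightly above the heterozygous ones. The log2 fold changes were 0.14 ± 0.104 at E9.0 (SE; 95% interval −0.08 to 0.36; edgeR adjusted p 0.578) and 0.09 ± 0.0991 at E9.5 (SE; 95% interval −0.12 to 0.30; edgeR adjusted p 0.787). These were the narrowest intervals of the 7 genes, and they exclude a fall of the size measured for Alx1.

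Twist1, a factor of crest-derived mesenchyme that is mutated in a human craniosynostosis syndrome, stood at 94.0, 89.7 and 92.1 CPM in heterozygous and at 77.0, 82.7 and 82.1 CPM in homozygous E9.0 libraries. The homozygous libraries lay under the heterozygous ones, as in 8.2% of all tested genes, with a difference of −0.19 ± 0.155 (SE; 95% interval −0.53 to 0.15; edgeR adjusted p 0.639). Scaled by total counts only, this difference was 0.01, since that scaling moved the median of all tested genes to 0.19 at E9.0. At E9.5 Twist1 stood at 102, 66.5 and 95.2 CPM against 87.2, 62.6 and 65.8 CPM, overlapping groups with a difference of −0.29 ± 0.151 (SE; 95% interval −0.62 to 0.04; edgeR adjusted p 0.456). The average of both stages was −0.24 ± 0.108 (SE; edgeR adjusted p 0.292), and it passed without heterozygous E9.5 replicate 2 (−0.32, edgeR adjusted p 0.0267) and with a separate block for each stage and number (edgeR adjusted p 0.0368).

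Six2, known for keeping progenitor cells undifferentiated in kidney and facial mesenchyme, stood at 13.5, 9.49 and 8.73 CPM in heterozygous and at 10.3, 9.68 and 13.98 CPM in homozygous E9.0 libraries. At E9.5 it stood at 10.5, 6.22 and 13.96 CPM against 11.6, 11.1 and 9.94 CPM. The groups overlapped at both stages. Its log2 fold changes were 0.12 ± 0.275 at E9.0 (SE; 95% interval −0.48 to 0.72; edgeR adjusted p 0.896) and 0.10 ± 0.251 at E9.5 (SE; 95% interval −0.45 to 0.65; edgeR adjusted p 0.931), and their sign changed with the library left out.

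Pdgfra, the receptor for platelet-derived growth factors A and C on crest-derived mesenchyme, stood at 99.4, 113 and 92.0 CPM in heterozygous and at 89.2, 99.9 and 75.4 CPM in homozygous E9.0 libraries (log2 fold change −0.20 ± 0.244, SE; 95% interval −0.75 to 0.35; edgeR adjusted p 0.778). At E9.5 it stood at 118, 64.98 and 107 CPM against 117, 75.4 and 87.6 CPM (log2 fold change −0.05 ± 0.237, SE; 95% interval −0.59 to 0.49; edgeR adjusted p 0.968). At both stages the ranges overlapped, and at E9.5 the spread within each genotype exceeded the difference between the means.

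Whether the genotype difference itself changed between stages was tested for all 7 genes. By edgeR 0 of the 7 passed, where 0.0675% of tested genes did, with adjusted p values of 0.805 to 0.994, and 0 of the 7 had an unadjusted p under 0.05, where 8.6% of tested genes did. DESeq2 and limma-voom also called 0 of the 7.

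The E9.5 libraries differed among themselves in all 7 genes together. Heterozygous E9.5 replicate 2 was the lowest of its 3 libraries in 7 of 7 genes, by −0.23 (Prrx2) to −0.97 (Alx4) on the log2 scale from its group's mean. Homozygous E9.5 replicate 1 was the highest of its 3 in 7 of 7 genes, and homozygous E9.5 replicate 2 was the lowest in 6 of 7. At E9.0 no library held either extreme in more than 4 genes. In the same heterozygous replicate 2, some other marker lists stood apart as well. Its 12 endothelial genes summed to 193 CPM against 265 and 276 CPM in its partners, and 4 endoderm genes to 9.16 against 16.3 and 19.7 CPM. Its 16 general mesenchyme genes summed to 1860 against 2280 and 2360 CPM, and 6 heart muscle genes to 2480 against 1820 and 1880 CPM. Other lists lay within or near the partners' range. There 6 neural tube progenitor genes summed to 805 against 648 and 740 CPM, 7 surface ectoderm genes to 378 against 375 and 327 CPM, 6 primitive erythroid genes to 5030 against 5180 and 3950 CPM, and 9 ganglion neuron genes to 195 against 168 and 189 CPM. No gene of these lists was at 0 in these libraries. The part of these differences in the levels of the 7 genes was not tested. As a description over 12 libraries that share their groups and scaling, the deviations from group means correlated most between Twist1 and Pdgfra (Pearson r 0.881) and least between Prrx1 and Six2 (Pearson r 0.182).

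**Figure D3:**
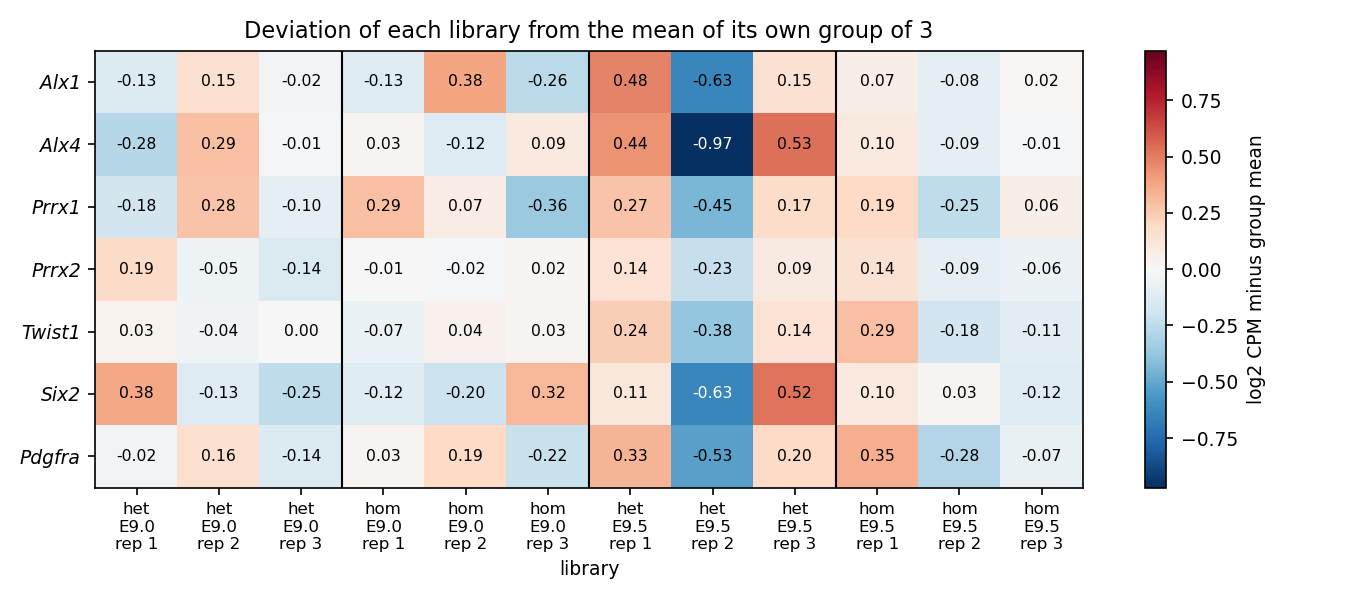
Log2 CPM minus the mean of the library's own group for each of the 7 genes (rows) in each of the 12 libraries (columns), with blue below and red above the group mean. The column of heterozygous E9.5 replicate 2 is below its group mean in every row, down to −0.97 for Alx4, and the column of homozygous E9.5 replicate 1 is above its group mean in every row.

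Since the E9.5 libraries differed in all 7 genes together, each gene was also expressed as a percentage of the summed CPM of the other 6, a measure chosen after the values were seen and given without a test. Alx1 was 3.36% to 3.81% of the others in heterozygous and 1.88% to 2.68% in homozygous E9.0 libraries, and 2.84% to 3.62% against 1.60% to 1.95% at E9.5. The genotypes did not overlap at either stage, as in 0.898% and 0.52% of tested genes in the lower direction when each was set against the summed 7 genes. In the higher direction the shares were 24.1% and 5.48%. The summed 7 genes were themselves lower in homozygous E9.0 libraries, at 271 to 300 against 306 to 347 CPM. At E9.5 the sums overlapped, at 265 to 359 against 251 to 430 CPM. A lower sum raises the percentage of every gene, so how rare a lower one is depends partly on the measure. Heterozygous E9.5 replicate 2 stood near its partners for Alx1 on this scale but still apart for Alx4 (8.22% against 13.4% and 15.3%), Prrx2 (13.0% against 9.50% and 9.67%) and Twist1 (36% against 31.1% and 30.3%). Alx4 overlapped at both stages, at 7.61% to 10.8% against 7.86% to 10.4% and at 8.22% to 15.3% against 11.4% to 13.9%. Prrx1 overlapped at E9.0 but at E9.5 was 28.3% to 30.4% in heterozygous and 20% to 23.0% in homozygous libraries. It thus lay lower without overlap there, as did 0.52% of tested genes. Pdgfra at E9.5 lay the other way, at 34.9% to 37.8% against 39.8% to 48.7%, as did 5.48% of tested genes. Prrx2 at E9.0 also lay higher, at 11.5% to 15.2% against 15.6% to 18.2%, as did 24.1% of tested genes. Twist1 and Six2 overlapped at both stages. These percentages depend on one another, since each gene is part of the sum for the other 6.

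**Figure D4:**
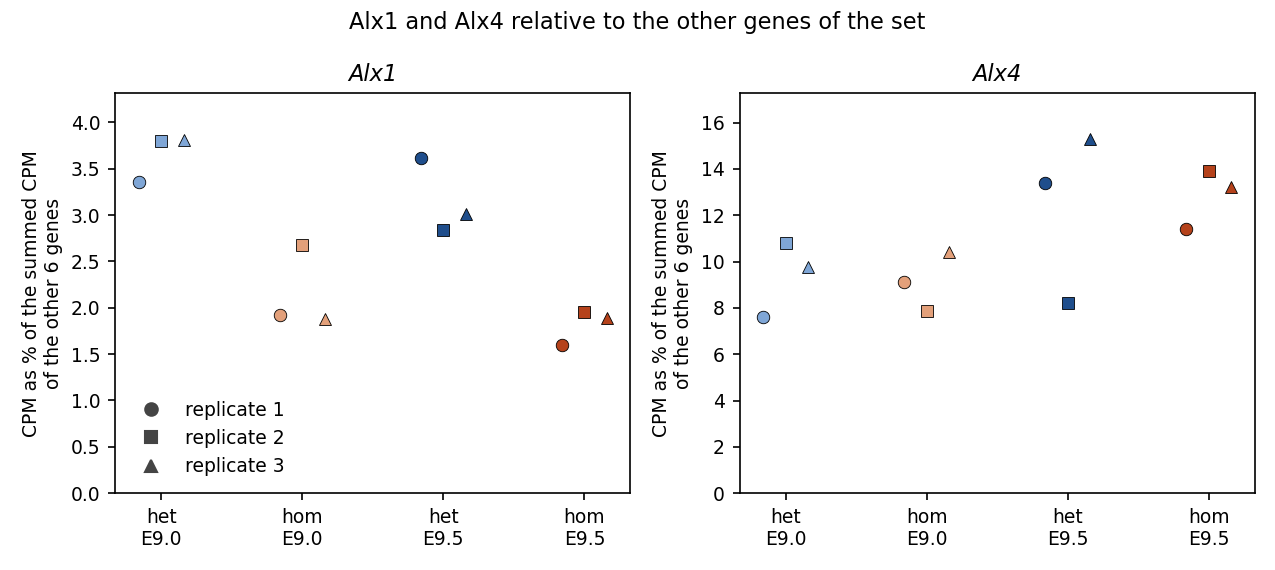
CPM of Alx1 (left) and Alx4 (right) as a percentage of the summed CPM of the other 6 genes on the y axis, in heterozygous (het, blue) and homozygous (hom, orange) libraries at both stages along the x axis, each point 1 library. For Alx1 the homozygous libraries, at 1.60% to 2.68%, lie under all heterozygous libraries, at 2.84% to 3.81%, and for Alx4 the genotypes overlap.

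The stage comparison asks how the genes differ between E9.5 and E9.0 within a genotype, and it uses the same libraries as the genotype comparison. In heterozygous libraries Prrx1 rose from 43.7 ± 7.67 to 81.8 ± 20.3 CPM (SD, n = 3 each), a rise of 1.86-fold without overlap (log2 0.90 ± 0.228, SE; edgeR adjusted p 0.0131). It was the 1 of 7 past the threshold, where 35.2% of tested genes passed in either direction, 19.2% higher, and 25.2% did not overlap in the higher direction, so the count is no greater than among all genes. The call was lost without heterozygous E9.0 replicate 1 (edgeR adjusted p 0.0583) or replicate 3 (0.0537). In homozygous libraries Prrx1 went from 36.4 ± 8.07 to 52.9 ± 8.03 CPM (SD, n = 3 each), also without overlap (26% of tested genes in the higher direction), with a log2 difference of 0.54 ± 0.235 (SE; edgeR adjusted p 0.106). There 0 of the 7 passed in edgeR, DESeq2 and limma-voom, against 35.4% of tested genes in edgeR, and Prrx1 alone had an unadjusted p under 0.05, against 44.7% of tested genes.

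Alx4 averaged 27.9 ± 5.56 CPM at E9.0 and 41.3 ± 19.4 CPM at E9.5 in heterozygous libraries (log2 0.56 ± 0.342, SE; edgeR adjusted p 0.246), and 23.9 ± 1.84 and 34.5 ± 2.21 CPM in homozygous ones (log2 0.53 ± 0.352, SE; edgeR adjusted p 0.281; SD, n = 3 each). The homozygous groups did not overlap, as in 26% of tested genes in the higher direction, and with only the groups compared their difference passed (0.53, edgeR adjusted p 0.000396). Without heterozygous E9.5 replicate 2 the heterozygous difference was 0.91 (edgeR adjusted p 4.76e-05). The other 5 genes had log2 stage differences of −0.13 to −0.03 in heterozygous and −0.20 to 0.08 in homozygous libraries. Scaled by total counts only, which moved the median of all tested genes to 0.38 in the heterozygous and 0.18 in the homozygous comparison, these 5 ran from 0.262 to 0.365 and from −0.04 to 0.24. Among them Prrx2 did not overlap between the stages in homozygous libraries, in the lower direction, as in 22.1% of tested genes (log2 −0.17 ± 0.102, SE; edgeR adjusted p 0.195). In heterozygous libraries Prrx2 moved from −0.13 (edgeR adjusted p 0.356) to −0.27 with GC and length correction, without and with the replicate block (edgeR adjusted p 0.0244 and 0.0145). Between the stages, 6 heart muscle genes summed to 64.3 to 329 CPM in E9.0 and 1820 to 2930 CPM in E9.5 libraries, and 6 primitive erythroid genes to 533 to 1170 and 2780 to 5180 CPM, with none at 0 and 6 of 6 of either list past the threshold in both genotypes. Also without overlap, 16 general mesenchyme genes summed to 1550 to 1740 CPM at E9.0 and 1860 to 2710 CPM at E9.5. By edgeR 9 of these 16 passed in each genotype, 6 higher and 3 lower in heterozygous and 7 higher and 2 lower in homozygous libraries. Of all tested genes 35.2% and 35.4% passed in either direction. The sums of 6 migrating crest genes were 211 to 263 and 110 to 158 CPM. Those of 9 ganglion neuron genes were 79.1 to 82.3 and 142 to 195 CPM. Over the same stages 6 neural tube progenitor genes summed to 637 to 698 and 648 to 805 CPM and 7 surface ectoderm genes to 353 to 465 and 327 to 483 CPM, overlapping ranges. The part of any of these lists in the stage differences was not tested.

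The pathway lists give the surroundings of these genes. Among 10 relatives of the set and Eya partners, 0 passed at E9.0 in edgeR, DESeq2 and limma-voom (2 had an unadjusted p under 0.05), and 1 passed at E9.5 in edgeR, in the higher direction. The median log2 difference of the list was 0.04 at both stages.

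Of 5 genes of the PDGF family other than Pdgfra, 0 passed edgeR's test at either stage, with 0 at E9.0 and 1 at E9.5, Pdgfb, under an unadjusted p of 0.05 and likewise in DESeq2 and limma-voom. Pdgfb, a ligand made mainly by endothelium, had the largest E9.5 value (log2 0.61 ± 0.164, SE; edgeR adjusted p 0.0763), and Pdgfrb, the receptor of perivascular cells, stood at 0.33 (edgeR adjusted p 0.559). Pdgfa and Pdgfc, ligands of Pdgfra, stood at −0.00 and 0.02 at E9.5 (edgeR adjusted p 0.994 and 0.973). Of 9 Twist1 dimer partners and Id inhibitors 0 passed at either stage in edgeR, DESeq2 and limma-voom, with 2 at E9.0 and 3 at E9.5 under an unadjusted p of 0.05 and median log2 differences of −0.00 and −0.12. Of 16 general mesenchyme genes such as collagens and Snai2, 0 passed at either stage in the same 3 tools, again with 2 and 3 under an unadjusted p of 0.05 and with medians of −0.02 and 0.14. Their sum was 1860 to 2360 CPM in heterozygous and 2440 to 2710 CPM in homozygous E9.5 libraries, without overlap, and 1580 to 1740 and 1550 to 1730 CPM at E9.0. The part of this in the levels of the 7 genes was not tested.

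Of 21 other craniofacial transcription factors 20 were tested. At E9.0 the gene past the threshold was Tfap2b alone, a crest and facial ectoderm AP-2 factor, which fell from 32.2 ± 1.71 to 18.7 ± 2.09 CPM (SD, n = 3 each; log2 −0.78 ± 0.104, SE; edgeR adjusted p 0.000773). At E9.5 4 fell and 1 rose by edgeR, limma-voom called 5 and DESeq2 6, and 9 of the 20 had an unadjusted p under 0.05 in edgeR. The gene added by DESeq2 was Foxc2, a forkhead factor, at 10.4 ± 2.92 CPM in heterozygous and 18.3 ± 4.87 CPM in homozygous libraries (SD, n = 3 each; edgeR adjusted p 0.114). Tfap2b fell from 36.2 ± 2.42 to 16.3 ± 2.04 CPM (SD, n = 3 each; log2 −1.15, edgeR adjusted p 1.99e-05). Msx1, a homeodomain factor of arch mesenchyme, had a log2 difference of −0.56 (edgeR adjusted p 0.000495). Pax3 and Pax7, which mark dorsal neural tube and crest, had log2 differences of −0.65 and −0.84 (edgeR adjusted p 0.00544 and 0.0194). Pax9, of pharyngeal endoderm and arch mesenchyme, rose, with a log2 difference of 0.94 (edgeR adjusted p 0.0137). The Pax9 call was lost without homozygous E9.5 replicate 1 (edgeR adjusted p 0.0578), and the Pax7 call without homozygous E9.5 replicate 1 or 3 or heterozygous E9.5 replicate 2 (up to 0.0789). The medians of this list were 0.06 and 0.05.

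Markers of other cell types also differed with genotype, and their part in the Alx1 difference was not tested. At E9.5 12 endothelial genes summed to 193 to 276 CPM in heterozygous and 349 to 394 CPM in homozygous libraries, with 8 of 12 past the threshold, all higher, and 5 cranial and pharyngeal mesoderm genes to 24.7 to 31.4 and 45.9 to 48.6 CPM, with 2 of 5 higher, among them Tbx1. Of 5 tested migrating crest genes 3 were lower, among them Sox10 (log2 −1.14, edgeR adjusted p 0.0148) and Foxd3 (log2 −1.80, edgeR adjusted p 0.0148), while the sum over the 6 listed was 110 to 140 CPM in heterozygous and 133 to 158 CPM in homozygous libraries. At E9.0 0 of the genes of these 3 lists passed in edgeR, DESeq2 and limma-voom, though 3 of 12, 1 of 5 and 3 of 5 had an unadjusted p under 0.05, with endothelial sums of 303 to 325 and 359 to 368 CPM, mesoderm sums of 38.1 to 48.4 and 45.8 to 51.1 CPM, and crest sums of 246 to 263 and 211 to 239 CPM. None of the genes was at 0. The 7 surface ectoderm genes summed to 353 to 410 CPM in heterozygous and 439 to 465 CPM in homozygous E9.0 libraries, without overlap, where 0 of 7 passed in the same 3 tools and 5 of 7 had an unadjusted p under 0.05. At E9.5 these sums were 327 to 378 and 379 to 483 CPM. Also at E9.5, Pou4f1 and Tubb3 of 9 ganglion neuron genes were lower, and Epcam of 7 surface ectoderm genes and Nkx2-5 of 6 heart muscle genes were higher. The forelimb and trunk mesoderm list, checked because Alx4, Prrx1 and Prrx2 are also limb genes, summed to 20 to 53.7 CPM, with 0 to 3 of its 8 genes at 0 in a library and 0 of 5 tested past the threshold at either stage in edgeR, DESeq2 and limma-voom, nor any at an unadjusted p under 0.05.

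By Pearson r of log2 CPM over the 12 libraries, among 13093 genes, the patterns most like that of Alx1 were those of Arsk (0.878), Tfap2b (0.869) and Pxdc1 (0.867). For Alx4 they were Cped1 (0.963), Col1a2 (0.948) and Gemin7 (0.901), and for Prrx1 they included Gstm5 (0.933) and Spdl1 (0.931). Prrx2 was most like Arhgap28 (0.91), Actb (0.907) and Scara3 (0.904), Twist1 like Hist4h4 (0.913), Adgra2 (0.887) and Rarg (0.842), Six2 like Actg1 (0.902), Rara (0.873) and Tns3 (0.842), and Pdgfra like Fli1 (0.901), Tmem119 (0.878) and Eva1b (0.854). These libraries share stage, genotype and scaling, so the values describe likeness only. With the group means removed, Cped1 stayed among the closest 3 for Alx4, and Fli1, an endothelial and haematopoietic factor, and Tmem119 among those for Pdgfra, while the closest genes of the other 5 were different ones.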

How the data were processed

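Total RNA of 12 libraries was sequenced with standard Illumina libraries, per the labels' protocols. The authors deposited raw counts per gene symbol, whole numbers with no normalization applied. Cutadapt, STAR, featureCounts, MultiQC and mm10 are named in the submitters' processing notes without versions, and the annotation and strand setting are not given in the sources used here. All 12 columns were matched to samples by name.

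Tests were run with edgeR 4.0.16 under R 4.3.3 (TMM scaling, filterByExpr, robust quasi-likelihood F test, 1 mean for each of 4 groups), adjusted by Benjamini-Hochberg over 14810 genes, two-sided, threshold 0.05. The common biological coefficient of variation was 8.77%. Standard errors are the fold change divided by the root of F. DESeq2 1.42.0 and limma-voom (limma 3.58.1) were alternatives. The edgeR steps were tested on simulated data. No 2 libraries of a group agreed within sampling noise (chi-square per gene 10.5 to 314).

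The 7 genes and all lists were chosen with earlier results of these data known. Named are these genes, Eftud2, list genes past the threshold in a genotype comparison, marker sums and the 3 genes most alike in pattern with a mean of at least 1 CPM (prior count 2). Pdgfa, Pdgfb, Pdgfc and Pdgfrb fall outside this rule and were named after their values were seen. A few genes inside it are not reported here. GENCODE M21 gave coordinates and lengths. Same-numbered libraries of the 2 genotypes had deviations correlated by 0.282, 0.107 and 0.202 at E9.0, so the numbers were taken as pairing there, from the data and not from the labels. At E9.5 the correlations were −0.042, −0.066 and 0.14, and the numbers were not taken as pairing. Differently numbered libraries ran from −0.341 to 0.142 at E9.0 and from −0.182 to 0.211 at E9.5. Their ranges overlap those of same-numbered libraries, so the pairing at E9.0 is not established.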

Additional observations from a re-analysis of the deposited data

Results flagged for a closer look

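Msx1, a homeodomain gene of arch mesenchyme from the list of other craniofacial transcription factors, was the 1 listed gene whose genotype difference itself differed between the stages in edgeR. DESeq2 called that difference for further listed genes, Foxd3, Pou4f1, Stmn2 and Tbx1. The mean of Msx1 was 31.5 ± 1.54 CPM in heterozygous and 34.2 ± 1.19 CPM in homozygous E9.0 libraries, and 47.8 ± 3.19 and 32.6 ± 0.872 CPM at E9.5 (SD, n = 3 each). The genotype difference was 0.11 on the log2 scale at E9.0 and −0.56 at E9.5, a difference of −0.67 ± 0.098 (SE; edgeR adjusted p 0.0198). It held in 11 of 13 other fits and in 7 of 12 fits without a library. It was lost without heterozygous E9.0 replicate 2, heterozygous E9.5 replicate 1 or any homozygous E9.5 library (edgeR adjusted p up to 0.0917).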

How the results depend on the processing

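With scaling by total counts only, limma-voom, no filter, the replicate block, the replicate block with GC and length correction, a threshold of 0.01, the test against a 1.5-fold change or only the groups compared, 0 of the 7 genes passed at E9.5 instead of 1. The replicate block gave Alx1 an adjusted p of 0.0634 there. DESeq2 and only the groups compared gave 1 instead of 0 at E9.0. The 1.5-fold test gave 0 for the average of both stages and 0 for the heterozygous stage comparison, as did the threshold of 0.01 for the latter. That comparison gave 2, Prrx1 and Prrx2, with GC and length correction, with and without the block. The homozygous stage comparison gave 1 without robust dispersions and with only the groups compared. With fits that left out 1 library, where the reduced group is assumed to vary like the others, the counts ran from 0 to 2 at E9.5, from 1 to 3 for the average and from 0 to 2 for the heterozygous stage comparison.

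Among alternatives chosen after seeing the data, a separate block for each stage and number gave 1 at E9.0 (Alx1), 2 at E9.5 (Alx1 and Prrx1) and 3 for the average (Alx1, Prrx1 and Twist1). Leaving out heterozygous E9.0 replicate 1 and heterozygous E9.5 replicate 2 together gave 1, 2 and 2, and 2 for the heterozygous stage comparison, with Alx1 at −0.95, −1.33 and −1.14, and turned Prrx2 to −0.013 and Six2 to −0.16 at E9.5. Of the 21 genotype differences of the 7 genes, 6 changed sign in some alternative, as did 9 of the 14 stage differences, and 0 of these had passed. Twist1 at E9.0 turned to 0.009 with total counts only. Without 1 library, Six2 ran from −0.063 to 0.31 at E9.0, from −0.16 to 0.39 at E9.5 and from −0.02 to 0.25 for the average, Pdgfra from −0.27 to 0.12 and Prrx2 from −0.01 to 0.17 at E9.5, and the Alx1 difference between stages from −0.43 to 0.10. The cause of these changes was not tested. Precision is limited by the 3 libraries a group, with the largest standard errors in Alx4 (0.362 at E9.0 and 0.331 at E9.5).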
